A study of Mus musculus with 2 samples.

Results

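Cxcl9, Cxcl10, Cxcr3 and Ifng were followed in spatial transcriptomes of mouse pancreatic tumors. These 4 genes were taken by their listed symbols out of 19465 features, and all 4 were counted in both libraries. The tumors grew from KPC cells, a pancreatic cancer line from genetically engineered mice with Pdx-1-Cre, injected into the mouse pancreas. The KPC-shZEB1 cells stably expressed a short hairpin RNA against Zeb1 and the KPC-shV cells a control vector, both through lentivirus and drug selection. One library labelled KPC-shZEB1 and one labelled KPC-shV were analysed. Each group is described with 2 tumors, and which of them a library covers is not given in the sources used here. Mice of the pancreas-injected tumor models were described as 4 to 6 weeks old. The tissues also used for single-cell RNA sequencing came from mice given gemcitabine, a chemotherapy drug, but the labels name neither age, sex, strain nor gemcitabine for these sections. Which of the selected cell lines was injected is not given in the sources used here.

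Cxcl9 and Cxcl10 are secreted chemokines that bind the same receptor, Cxcr3, a surface protein of activated T cells and NK cells that directs their movement into inflamed tissue. Interferon gamma, the product of Ifng, is made mainly by T cells and NK cells and acts on the surrounding cells through the receptor chains Ifngr1 and Ifngr2 and the kinases Jak1 and Jak2. Macrophages, dendritic cells, endothelial cells and tumor cells can all transcribe Cxcl9 and Cxcl10 on this signal, Cxcl9 mostly on interferon gamma and Cxcl10 also on type I interferon. A barcoded Visium spot covers more than 1 cell, often of unlike types, so that the cell that made a transcript is not seen.

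Both ligand genes lie on the minus strand of chromosome 5, Cxcl9 at positions 92321347 to 92328079 and Cxcl10 at 92346638 to 92348889 (GRCm38), 18559 bases apart. Cxcr3 lies on chromosome X at 101731535 to 101734269 on the minus strand, and Ifng on chromosome 10 at 118441046 to 118445892 on the plus strand. The 250 bases before the start of both ligand genes are shown because these genes varied together across spots. They are RefSeq sequence of GRCm38.p6, chr5:92328080-92328329 for Cxcl9 and chr5:92348890-92349139 for Cxcl10, both minus strand, read 5′ to 3′, and capitals mark matches to a motif.
Cxcl9: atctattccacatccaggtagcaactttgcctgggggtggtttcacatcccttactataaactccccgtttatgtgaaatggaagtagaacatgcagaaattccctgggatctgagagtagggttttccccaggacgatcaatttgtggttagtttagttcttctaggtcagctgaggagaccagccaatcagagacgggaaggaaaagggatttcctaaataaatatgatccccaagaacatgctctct
Cxcl10: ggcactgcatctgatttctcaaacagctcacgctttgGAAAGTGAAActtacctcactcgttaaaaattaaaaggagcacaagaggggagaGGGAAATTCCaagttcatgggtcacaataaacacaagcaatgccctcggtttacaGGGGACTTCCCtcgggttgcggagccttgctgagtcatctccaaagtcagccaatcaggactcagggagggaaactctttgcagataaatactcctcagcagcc
The search covered both strands and used the interferon-stimulated response element (ISRE) as GAAANNGAAA and the gamma-activated site (GAS) as TTCNNNGAA. It used the kappaB element as GGGRNNYYCC, with R for A or G, Y for C or T and N for any base. In the Cxcl10 window it found 1 ISRE match, 213 to 204 bases before the start, and 3 kappaB matches, of which 2 overlap by all but 1 base. The Cxcl9 window held 0 matches of any of the 3 motifs, which says only that these letters are not in this window. Among 32851 promoter windows of the same length, 2.98% held the ISRE letters, 7.02% the GAS letters and 7.25% the kappaB letters. Among 12 windows of 11 genes of the interferon gamma-induced list described below, 7 held the ISRE letters and 5 the GAS letters.

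The library labelled KPC-shZEB1 held 140493626 UMIs (unique molecular identifiers, 1 per captured probe molecule) in 2220 spots and that labelled KPC-shV 172059528 in 3552 spots, with medians of 59957.5 and 52544.5 UMIs per spot. Spots with over 20% of their UMIs from 19 digestive enzyme and other acinar genes, called acinar-rich here, made up 34.3% and 7.18% of the spots and 39.3% and 3.83% of the UMIs, respectively. Levels were therefore given over all spots and outside acinar-rich spots. Zeb1, the targeted gene, had 10.8 and 12.4 UMIs per 1000000 (CPM) over all spots, a log2 ratio of -0.20, but 15.6 and 12.7 CPM outside acinar-rich spots, a log2 ratio of 0.29, so the libraries are called by their labels. The libraries shared 1718 spot barcodes, which mark positions on the slide and not cells. Spots under 20000 UMIs outside acinar-rich tissue numbered 52 and 628.

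Both ligands and both of the other genes had higher levels in the library labelled KPC-shZEB1. Cxcl9 had 603 CPM there and 313 CPM in the library labelled KPC-shV, which gives a log2 ratio of 0.95 (95% interval of counting error 0.93 to 0.96). Outside acinar-rich spots the levels were 986 and 325 CPM, a log2 ratio of 1.60 (1.58 to 1.61), and the ratio stood at the percentile 98.6 of the 14371 genes that reached 100 UMIs in each library. In such tissue counts, more cells of a type and more RNA per cell cannot be told apart. Cxcl10 had 103 and 67.0 CPM over all spots, a log2 ratio of 0.62 (0.58 to 0.65), and 166 and 69.6 CPM outside acinar-rich spots, a log2 ratio of 1.26 (1.22 to 1.29). Both ratios thus depended on whether acinar-rich tissue was counted. With 1 library per group nothing was replicated or tested, and every interval covers counting error only, not the spread between tumors.

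Cxcr3, the receptor, was counted with 371 UMIs (2.64 CPM) in the library labelled KPC-shZEB1 and 219 UMIs (1.27 CPM) in that labelled KPC-shV, which makes a log2 ratio of 1.05 (0.81 to 1.30). Ifng was counted with 477 UMIs (3.40 CPM) and 338 UMIs (1.96 CPM), a log2 ratio of 0.79 (0.59 to 0.99). Outside acinar-rich spots the log2 ratios were 1.65 (1.40 to 1.90) for Cxcr3, from 3.996 and 1.28 CPM, and 1.42 (1.21 to 1.63) for Ifng, from 5.40 and 2.02 CPM. Cxcr3, with an interval that spans 2-fold, was thus the 1 of 4 genes at least 2-fold higher over all spots, where 2.4% of genes were at least 2-fold higher and 9.21% at least 2-fold lower. This call depended on the measure, since the mean CPM of spots gave 1.13 for Cxcl9 and 0.72 for Cxcr3, and median-of-ratios scaling put all 4 genes past 2-fold, at 1.10 to 1.53. All 4 were at least 2-fold higher outside acinar-rich spots, where 4.83% of genes were at least 2-fold higher and 2% at least 2-fold lower. The median gene had a log2 ratio of -0.48 over all spots and of -0.015 outside acinar-rich spots, and among all genes the 4 ratios stood above the percentile 95 in the first case and between 97.1 and 98.7 in the second.

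**Figure D1:**
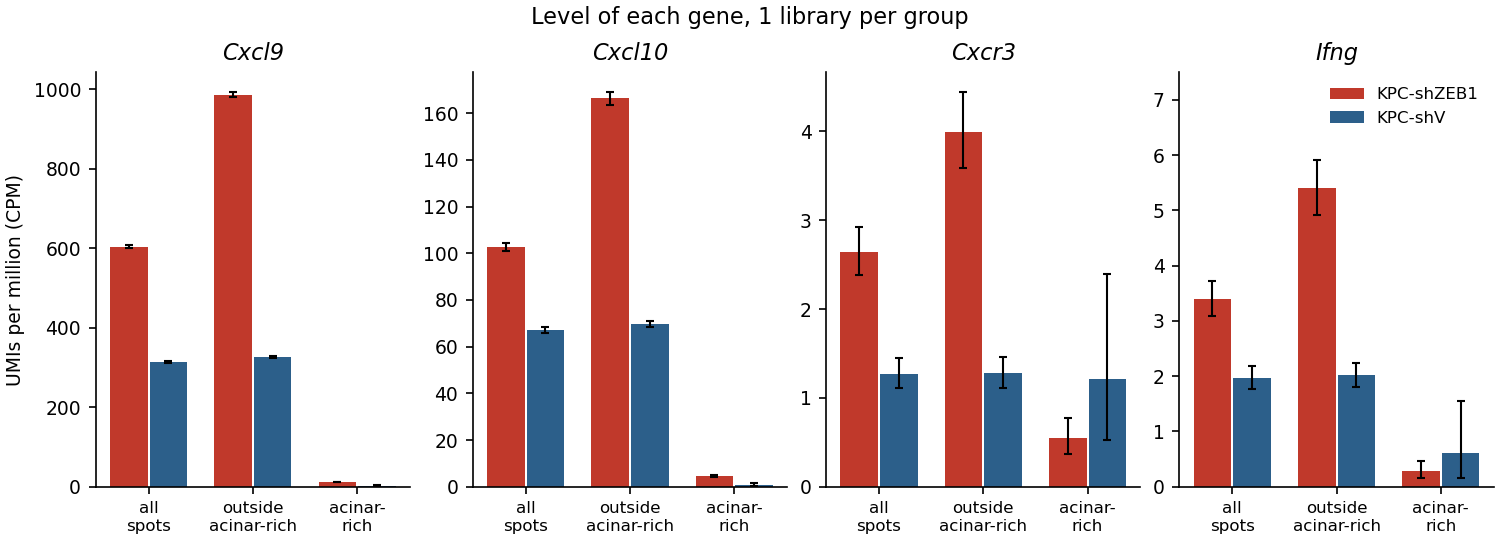
Level in CPM (vertical axes, from 0, with a scale of its own for each gene) of Cxcl9, Cxcl10, Cxcr3 and Ifng over all spots, outside acinar-rich spots and in acinar-rich spots (horizontal axes). Bars are 1 library each and error bars are 95% Poisson intervals for counting error; outside acinar-rich spots, Cxcl9 reads 986 against 325 CPM and Ifng 5.40 against 2.02 CPM.

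In the library labelled KPC-shV, Cxcr3 and Ifng lay within the range of genes that neither pancreas nor tumor should express. Of 17 such genes (of the eye, testis, kidney, brain and others), outside acinar-rich spots 3 were at or above Cxcr3 and 1, the olfactory gene Omp, at or above Ifng there, with a median of 0.840 CPM. In the library labelled KPC-shZEB1 only Omp, with 5.60 CPM, was at or above either gene, and the next of the 17 had 2.46 CPM. In acinar-rich spots Cxcr3 had 0.544 and 1.21 CPM, from 30 and 8 UMIs, and Ifng 0.290 and 0.607 CPM, from 16 and 4 UMIs. Part of the counts of both genes in the library labelled KPC-shV can therefore be background, and how much was not tested. Cxcl9, with 11.8 and 2.43 CPM, and Cxcl10, with 4.51 and 0.759 CPM in acinar-rich spots, stood far below their levels elsewhere in both libraries.

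Of 16 interferon gamma-induced genes, 14 were higher over all spots and 15 outside acinar-rich spots. At least 2-fold higher were 2 over all spots, beside 2.4% of all genes, and 9 outside acinar-rich spots, beside 4.83% of all genes. In either case 0 were at least 2-fold lower, beside 9.21% and 2% of all genes. The list's median log2 ratio was 0.47 and 1.10, respectively, and that of all genes -0.48 and -0.015. Outside acinar-rich spots the log2 ratio was 2.10 for Ido1, which degrades tryptophan, 1.99 for Gbp5 and 1.56 for Gbp2, guanylate-binding proteins of cell-intrinsic defense, 1.23 for Ciita, the master regulator of MHC class II genes, and 0.53 for Cd274, which encodes PD-L1. Nlrc5, a regulator of MHC class I genes, had 96.8 and 98.7 CPM. The receptor chains Ifngr1 and Ifngr2 had log2 ratios of 0.27 and 0.39, and the kinases Jak1 and Jak2 of -0.06 and 0.16.

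Genes induced mainly by type I interferon showed no shift of this size. Of 9 measured, 0 were at least 2-fold higher and 0 at least 2-fold lower outside acinar-rich spots, beside 4.83% and 2% of all genes. Their median log2 ratio was 0.016, close to that of all genes. Within this list Ifit2 had a log2 ratio of 0.92 and Usp18, which restrains type I interferon signaling, of -0.91. The 4 measured type I and III interferon genes, among them Ifna2 and Ifnl2, lay between 0.457 and 2.04 CPM in both libraries, in the range of the genes not expected in this tissue. Among 5 cytokine genes that promote Ifng transcription and reached 100 UMIs in each library, 2 were at least 2-fold higher outside acinar-rich spots, beside 4.83% of all genes. They were Il18 with 67.9 and 30.3 CPM and Il12b with 2.82 and 1.14 CPM.

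Other chemokines differed in both directions. Outside acinar-rich spots, 3 of 17 were at least 2-fold higher in the library labelled KPC-shZEB1 and 3 at least 2-fold lower, beside 4.83% and 2% of all genes. The higher ones were Cxcl13, which attracts B cells, with a log2 ratio of 2.12, Ccl17, a ligand of Ccr4, with 1.60, and the monocyte attractant Ccl8 with 1.53. The lower ones were Cxcl1 and Cxcl5, which attract neutrophils through Cxcr2, with -1.51 and -1.47, and Cxcl14 with -1.07. Among 10 other chemokine receptor genes, 3 were at least 2-fold higher, beside the same 4.83%, Cxcr6, which marks resident and effector T cells, with a log2 ratio of 1.68, Ccr7 with 1.62 and Cxcr5, a receptor of B cells and follicular helper T cells, with 1.26. None of the 10 was at least 2-fold lower, beside 2% of all genes. Cxcl11, the third ligand of Cxcr3, was not analysed here.

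Markers of several cell types moved with the 4 genes, and their part in the differences was not tested. Outside acinar-rich spots the median gene had a log2 ratio of -0.015. Of all genes outside them, 4.83% were at least 2-fold higher and 2% at least 2-fold lower. There the T cell list (Cd3d, Cd3e and Cd3g) summed to 79.3 and 13.7 CPM, a log2 ratio of 2.54 (2.47 to 2.61), and all 3 genes were at least 2-fold higher. Both CD8 genes, Cd8a and Cd8b1, were at least 2-fold higher and summed to 13.5 and 2.63 CPM. In the library labelled KPC-shV they had 1.67 and 0.955 CPM, within the range of the genes not expected in this tissue. The 4 B cell genes were all higher, with a summed 36.4 and 8.58 CPM. The 6 macrophage genes summed to 2440.3 and 1557 CPM, a log2 ratio of 0.65, with 6 of 6 higher but 0 at least 2-fold, and their log2 ratio over all spots was 0.06. The 5 neutrophil genes summed to 129 and 308 CPM, with 0 of 5 higher and 3 at least 2-fold lower. No gene of these lists was at 0 in either library.

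Relative to T cell transcripts, the receptor and Ifng went the other way. In the library labelled KPC-shZEB1 there were 0.0532 Cxcr3 UMIs per UMI of the T cell list over all spots, against 0.0958 in that labelled KPC-shV, and the log2 ratio was -0.85 (-1.10 to -0.60). Ifng had 0.0684 and 0.148 UMIs per T cell UMI, a log2 ratio of -1.11 (-1.32 to -0.90), and 0.0561 and 0.0894 per UMI of the T and NK cell lists together, a log2 ratio of -0.67 (-0.88 to -0.46). The T cell genes thus differed more between the libraries than Cxcr3 or Ifng did. Background counts weigh more on Cxcr3 and Ifng where their levels are low, so these quotients can be too high in the library labelled KPC-shV. The T cell genes were low there too, with 3.32 to 5.61 CPM over all spots. The highest gene not expected in this tissue had 8.08 CPM and the next 1.96 CPM. Background in the T cell genes can make the quotients too low, and neither size was tested.

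Relative to macrophage transcripts, both ligands remained higher. Cxcl9 had 0.375 and 0.203 UMIs per UMI of the macrophage list over all spots, a log2 ratio of 0.88 (0.87 to 0.90), and Cxcl10 had 0.0638 and 0.0434, a log2 ratio of 0.56 (0.52 to 0.59). The balance of the ligands differed as well, with 5.87 Cxcl9 UMIs per Cxcl10 UMI against 4.67, a log2 ratio of 0.33 (0.29 to 0.37). Per UMI of Ifng there were 178 and 159 UMIs of Cxcl9, a log2 ratio of 0.16 whose interval, -0.04 to 0.36, spans 0.

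The across-spot results use the 1406 and 2669 spots outside acinar-rich tissue with at least 20000 UMIs, each thinned at random to 20000 UMIs, where 1 UMI in a spot is worth 50 CPM. Cxcl9 was seen in 84.7% (82.7 to 86.6) of those labelled KPC-shZEB1 and in 70.1% (68.4 to 71.9) of those labelled KPC-shV, with a median of 13 and 2 UMIs per spot and a highest spot of 155 and 127. With acinar-rich spots counted too, the Cxcl9 shares were 60.1% and 66.6%, in the opposite order to the levels, and no order is read from them. Outside acinar-rich spots Cxcl10 was seen in 68.8% (66.3 to 71.2) and 46.3% (44.4 to 48.2). Cxcr3 was seen in 7.47% (6.15 to 8.97) and 2.51% (1.95 to 3.18), and Ifng in 7.33% (6.02 to 8.81) and 3.82% (3.13 to 4.62). In acinar-rich spots at the same depth the share was 0.941% (0.379 to 1.93) of 744 spots and 3.25% (1.06 to 7.41) of 154 spots for Cxcr3, so that in the library labelled KPC-shV the Cxcr3 share outside acinar-rich tissue was not above that in the few acinar-rich spots, and no difference is read from these shares. For Ifng it was 0.538% (0.147 to 1.37) and 1.30% (0.158 to 4.61). Median depths before thinning were 66371 UMIs in acinar-rich and 58340 in other spots of the first library and 24143 and 54896 in the second.

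Most Cxcl9 transcripts lay in spots with many of them. Spots with at least 16 Cxcl9 UMIs made up 45.2% (42.5 to 47.8) of the spots labelled KPC-shZEB1 and 13.9% (12.6 to 15.3) of those labelled KPC-shV, and held 86.6% and 59.5% of the Cxcl9 UMIs, respectively. Within that class the Cxcl9 level was still higher, 1762 against 1391 CPM, a log2 ratio of 0.34 (0.31 to 0.38), whereas Cxcl10 had 270.2 and 265 CPM, a log2 ratio of 0.03 (-0.05 to 0.11). Spots were also ranked by the UMIs of each ligand in turn. The top 5% for a ligand held 31.1% of Cxcl9 and 42.2% of Cxcl10 in the library labelled KPC-shV, against 20.1% and 30.8%. The variance of Cxcl9 UMIs over their mean went the other way, at 16.7 against 21.6, so no order of unevenness is read for Cxcl9.

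**Figure D2:**
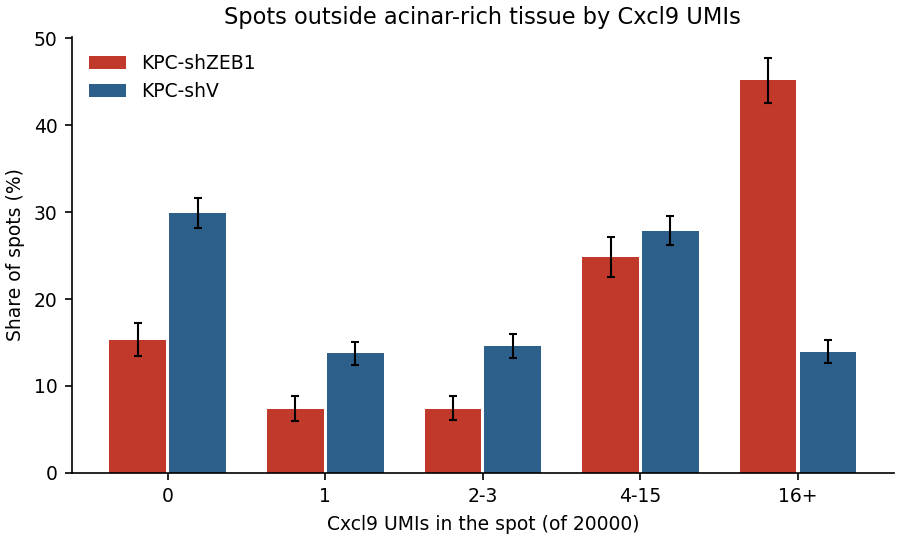
Share of spots outside acinar-rich tissue (vertical axis, percent, from 0) by the number of Cxcl9 UMIs in the spot after thinning to 20000 UMIs (horizontal axis), for 1406 spots labelled KPC-shZEB1 and 2669 labelled KPC-shV. Error bars are exact binomial 95% intervals; the class of 16 or more holds 45.2% and 13.9%, and the class of 0 holds 15.3% and 29.9%.

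In both libraries, both ligands were higher in spots with T cell transcripts than in spots without. With 0, 1, 2 to 3 and 4 or more UMIs of Cd3d, Cd3e and Cd3g in the spot, the Cxcl9 level was 571, 898, 1249 and 1280.2 CPM in the library labelled KPC-shZEB1 and 247, 506, 894 and 1384 CPM in that labelled KPC-shV. Of the 4 classes, Cxcl9 thus differed most between the libraries where no T cell UMI was seen. A count of 0 does not show that T cells were absent, since the list averaged only 1.58 and 0.30 UMIs per spot. The log2 ratio between the libraries was 1.21 (1.16 to 1.25) at 0 UMIs, 0.83 at 1, 0.48 at 2 to 3 and -0.11 (-0.24 to 0.02) at 4 or more, the last resting on 179 and 19 spots. Cxcl10 showed 84.9, 144, 220.4 and 242 CPM against 57.4, 104, 233 and 232 CPM, with log2 ratios of 0.56 (0.45 to 0.68), 0.48, -0.08 and 0.07 (-0.25 to 0.40). From spots with 0 to spots with at least 2 T cell UMIs, the log2 ratio was 1.14 (1.10 to 1.19) for Cxcl9 and 1.42 (1.31 to 1.54) for Cxcl10 in the library labelled KPC-shZEB1, and 1.95 (1.89 to 2.01) and 2.02 (1.90 to 2.14) in the other. The order of the libraries turned without thinning, where Cxcl9 had 2.02 and 1.79 and Cxcl10 1.90 and 1.63, and with acinar-rich spots, where Cxcl9 had 2.34 and 2.04 and Cxcl10 2.58 and 2.11. At 5000 UMIs the classes changed as well, and spots with at least 1 T cell UMI were set against those with 0. The values of that contrast were 0.42 and 1.21 for Cxcl9 and 0.59 and 1.18 for Cxcl10. Only the sign within each library is therefore read.

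Cxcr3 and Ifng, counted with few UMIs, were also higher in the spots with the most T cell transcripts. Cxcr3 had 0.595 CPM (6 UMIs) in spots labelled KPC-shZEB1 without a T cell UMI and 12.3 CPM (44 UMIs) in those with 4 or more, and 0.895 CPM (38 UMIs) and 15.8 CPM (6 UMIs) in spots labelled KPC-shV. Ifng had 2.08 CPM (21 UMIs) and 10.3 CPM (37 UMIs) in the first library and 1.48 CPM (63 UMIs) and 26.3 CPM (10 UMIs) in the second. In the highest class the Ifng level was lower in the library labelled KPC-shZEB1, by a log2 ratio of -1.35 (-2.38 to -0.18). In the lowest class both libraries had Cxcr3 at or below 1 CPM, the level of the genes not expected in this tissue.

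**Figure D3:**
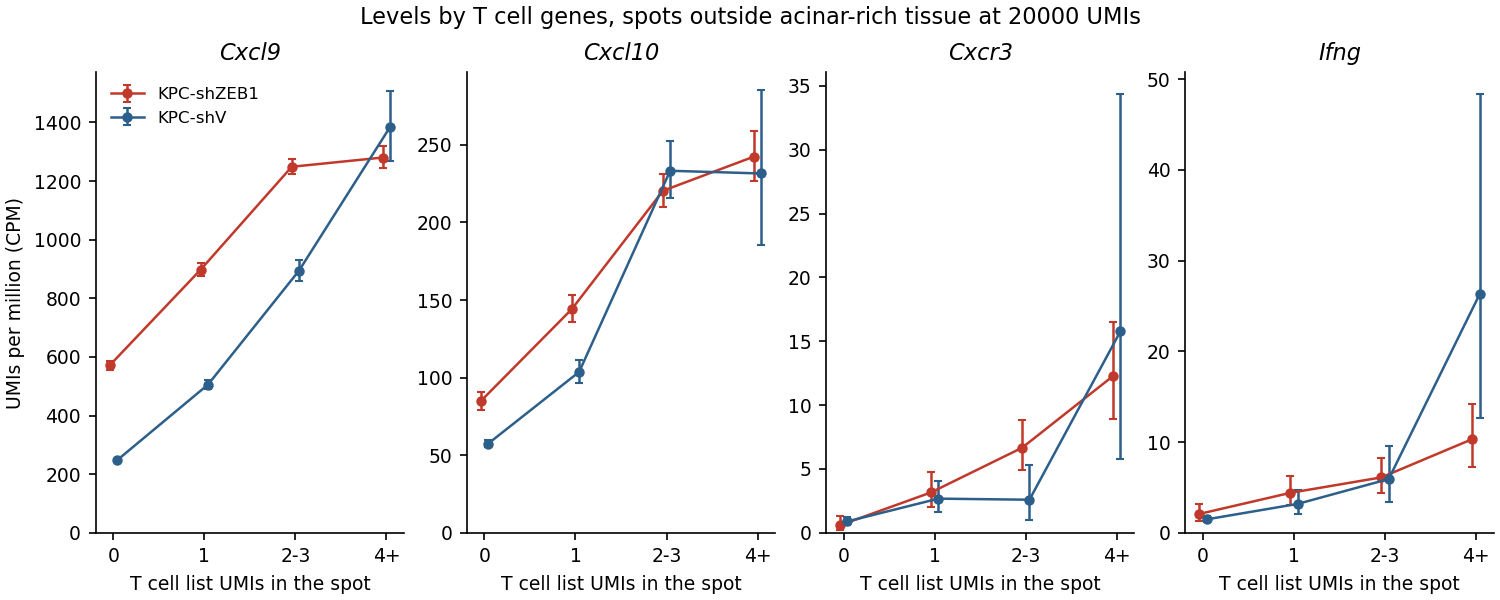
Level in CPM (vertical axes, from 0) of the 4 genes in spots outside acinar-rich tissue at 20000 UMIs, by the UMIs of Cd3d, Cd3e and Cd3g in the spot (horizontal axes). Points are 1 library each with 95% Poisson intervals; the Cxcl9 lines come together at 4 or more T cell UMIs, where they read 1280.2 and 1384 CPM.

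Both ligands were higher in the top than in the bottom class of macrophage transcripts. The pooled spots of both libraries were split into 4 classes at 14, 28 and 52 UMIs of the 6 macrophage genes, among them Adgre1, Csf1r and the complement gene C1qa. The classes were of like size only when pooled. From lowest to highest they held 96, 325, 480 and 505 spots labelled KPC-shZEB1 and 914, 670, 558 and 527 labelled KPC-shV. From the lowest to the highest class, Cxcl9 had 159, 264, 431 and 583 CPM in the library labelled KPC-shV, an increase at every step. In the library labelled KPC-shZEB1 it had 444, 905, 1069 and 876 CPM, with its highest level in the third class. The log2 ratio of the top over the bottom class was 1.87 (1.81 to 1.93) and 0.98 (0.88 to 1.09), respectively. The latter value was 0.69 under another random thinning and 5.06 with acinar-rich spots, against 1.85 and 2.11 in the other, so the order of the libraries turned in the second case. Cxcl10 had 49.5, 56.5, 79.0 and 135 CPM in the library labelled KPC-shV and 59.4, 121, 176 and 175 CPM in that labelled KPC-shZEB1, a top over bottom log2 ratio of 1.45 (1.33 to 1.57) and 1.56 (1.28 to 1.84). When each library was instead split at its own upper quartile, at 67 and 43 macrophage UMIs, the Cxcl9 log2 ratio of the spots above over those below was -0.30 (-0.34 to -0.26) in the library labelled KPC-shZEB1, turned in direction, and 1.22 (1.18 to 1.27) in that labelled KPC-shV. Spearman's rank correlation of Cxcl9 with the macrophage list over the spots of each library was 0.05 and 0.29, respectively. Cxcr3 lay mainly in the top pooled class, with 8.81 CPM against at most 2.40 CPM in the other classes of the library labelled KPC-shZEB1 and 4.08 against at most 0.970 CPM in that labelled KPC-shV.

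Spots rich in B cell transcripts stood apart from this pattern. Spots with at least 4 UMIs of the B cell list, which holds Ms4a1, Cd79a and Cd79b among others, numbered 93 of 1406 and 10 of 2669, and 83 of the 93 fell in the top macrophage class. In the library labelled KPC-shZEB1 these spots had 254 CPM of Cxcl9, against 966 CPM in the others, and 74.2 against 161 CPM of Cxcl10. Cxcr3 was higher in them, with 14.5 CPM (27 UMIs) against 3.58 CPM (94 UMIs), and Ifng had 4.84 CPM (9 UMIs) against 4.76 CPM. Without them the top macrophage class had 993.5 CPM of Cxcl9, still below the 1085 CPM of the third class. B cell-rich spots of this library thus had more Cxcr3 and less of both ligands than the others. In the library labelled KPC-shV the 10 such spots held 8 UMIs of Cxcl9 in all.

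T cell transcripts went with a higher Cxcl9 level in each macrophage class of both libraries. In the lowest class, however, only 4 spots of either library had at least 2 T cell UMIs. The interval of that class spans 0 in the library labelled KPC-shV. Within the top macrophage class, Cxcl9 had 582 CPM at 0 and 1011 CPM at 2 or more T cell UMIs in the library labelled KPC-shZEB1 and 397 and 995 CPM in that labelled KPC-shV. Within spots without a T cell UMI, Cxcl9 had 420.3 CPM in the lowest and 582 CPM in the highest macrophage class in the first library and 147 and 397 CPM in the second. For Cxcl10 the same values were 44.6 and 104 CPM, and 48.9 and 81.3 CPM. Of 16 combinations of macrophage class and T cell class, 9 had at least 20 spots in both libraries, and Cxcl9 had its higher level under the label KPC-shZEB1 in 9 of these 9, by log2 ratios of 0.12 to 1.55. These 9 held 1149 and 2559 spots. Averaged over the 9 with the weights of the spots labelled KPC-shZEB1, the Cxcl9 levels were 843 and 536 CPM, a log2 ratio of 0.65. Without weighting and over all 1406 and 2669 spots it was 1.496, so these values differ in the spots used as well as in the weights. Cxcl10 was higher in 6 of the 9, with log2 ratios from -0.30 to 1.21 over the 9. Its weighted levels were 140.1 and 120.4 CPM, a log2 ratio of 0.22, against 1.06 over all spots without weighting. In the top macrophage class with 4 or more T cell UMIs, which had 127 and 18 spots and so fell outside the 9, Cxcl9 was lower in the library labelled KPC-shZEB1, with 1041 and 1428 CPM.

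**Figure D4:**
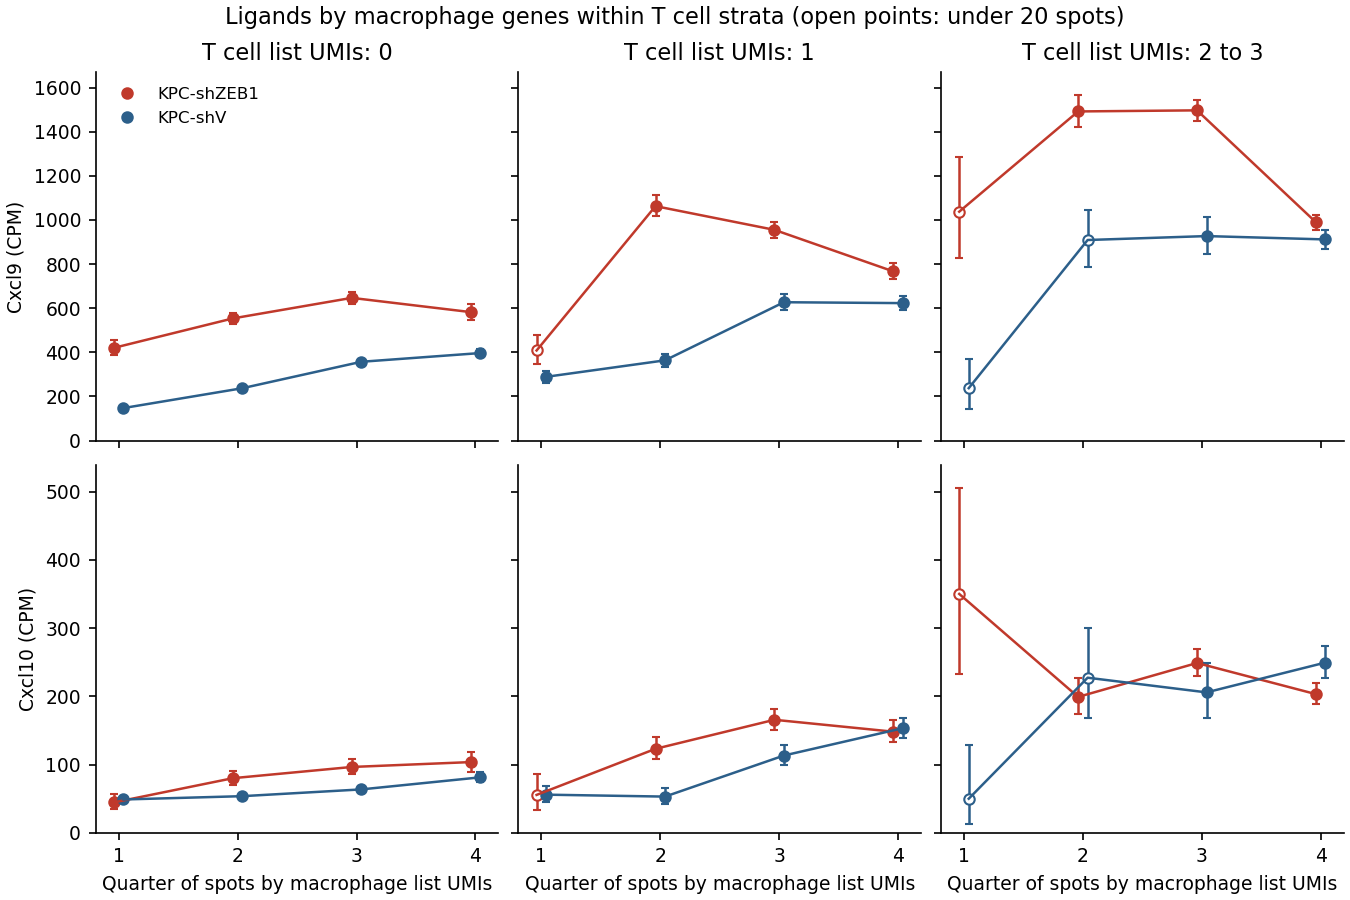
Level in CPM (vertical axes, from 0) of Cxcl9 (top) and Cxcl10 (bottom) by class of macrophage list UMIs (horizontal axes), in spots with 0, 1 and 2 to 3 T cell list UMIs (columns), outside acinar-rich tissue at 20000 UMIs. Points are 1 library each with 95% Poisson intervals, open where under 20 spots; with 0 T cell UMIs, Cxcl9 goes from 147 to 397 CPM in the library labelled KPC-shV and reads 420.3 and 582 CPM at the ends in that labelled KPC-shZEB1.

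Other cell type lists placed Cxcl9 in different surroundings in the libraries. For each list, the spots at or above the upper quartile of that library, and with at least 1 UMI of the list, were set against its other spots. The share of spots taken thus differed between lists and libraries. It was 303 of 1406 and 128 of 2669 spots for the CD8 list, and 497 and 743 spots for the neutrophil list. The Cxcl9 log2 ratio, given first for the library labelled KPC-shZEB1, was 0.65 and 1.21 for the CD8 list and 0.74 and 1.69 for the type 1 lymphocyte list (Ccl5, Xcl1, Tbx21 and others), positive in both libraries. The type 1 lymphocyte list is a sum that mostly follows Ccl5, with 324 of 387 CPM and 71.4 of 113 CPM outside acinar-rich spots, while Tbx21 had 2.31 and 1.34 CPM. For the neutrophil list the Cxcl9 log2 ratio was 0.82 and -1.04, opposite in sign. For the fibroblast list it was -1.70 and 0.67, and for the endothelial list -0.65 and 0.84. Acinar genes still summed to 6582 and 1923 CPM outside acinar-rich spots. For the acinar list the Cxcl9 log2 ratio was -1.88 (-1.95 to -1.82) and -0.46 (-0.51 to -0.41), and that of Cxcl10 was -1.13 and -0.06 (-0.16 to 0.05). Hypoxia genes, among them Vegfa and Slc2a1, had a log2 ratio of -0.31 and -2.13, so that Cxcl9 had 92.5 CPM in the spots highest for hypoxia in the library labelled KPC-shV against 406 CPM in its other spots. Spots highest for type I interferon-induced genes had a log2 ratio of 0.97 and 0.32 for Cxcl9 and of 1.003 and 1.02 for Cxcl10. Cxcr3 was lower in the spots highest for the epithelial tumor list, with log2 ratios of -3.72 (-6.01 to -2.13) and -1.64 (-3.01 to -0.52), from 0.426 against 5.60 CPM (3 and 118 UMIs) and 0.521 against 1.63 CPM (7 and 65 UMIs).

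**Figure D5:**
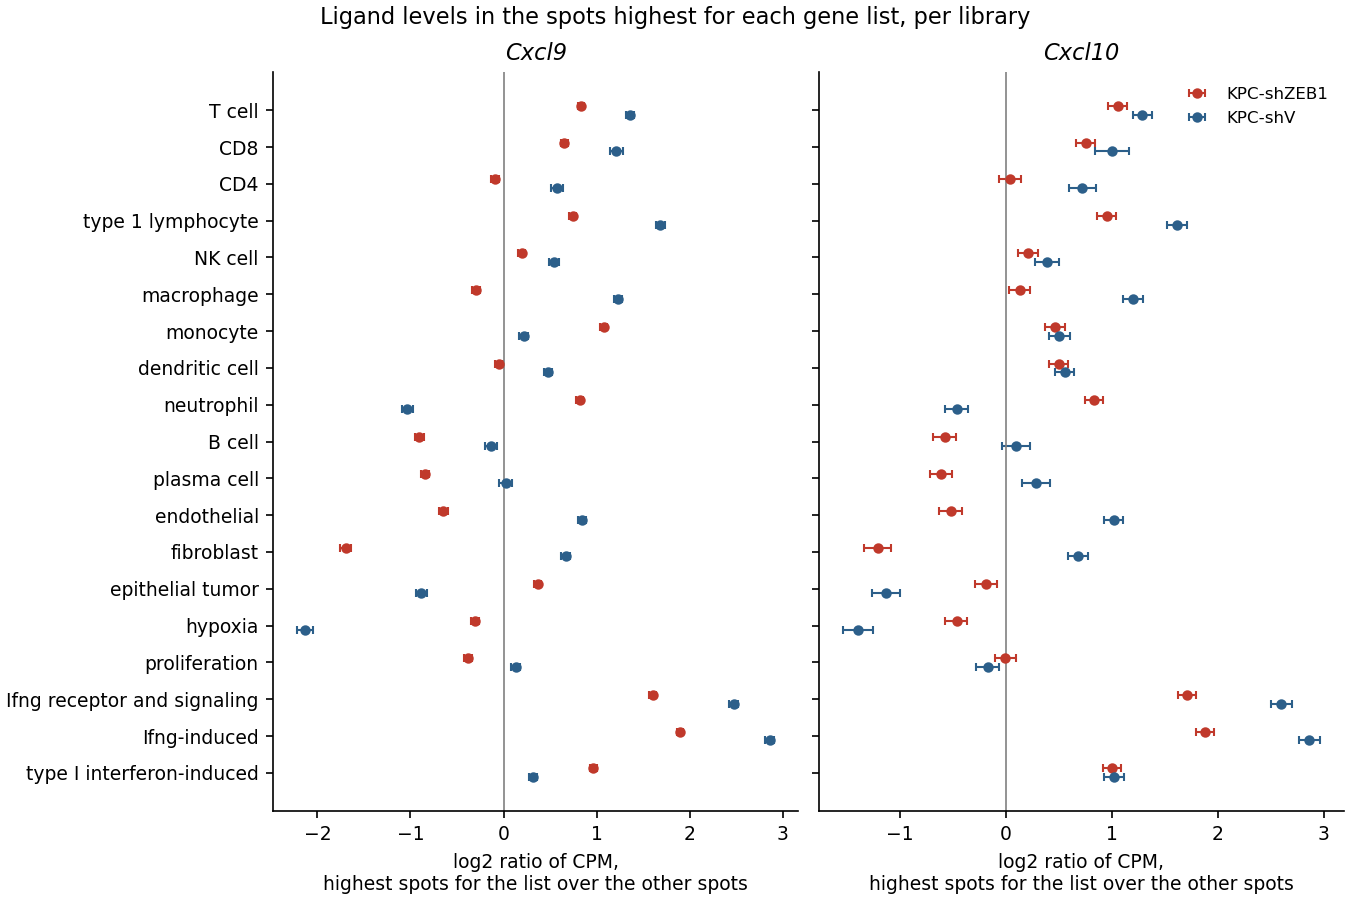
Log2 ratio of the level of Cxcl9 (left) and Cxcl10 (right) in the spots highest for a gene list over the other spots of the same library (horizontal axes), for 19 lists (vertical axis), outside acinar-rich tissue at 20000 UMIs. Points are 1 library each with 95% intervals for counting error; the interferon gamma-induced list lies farthest right in both libraries, at 1.89 and 2.86 for Cxcl9, and the neutrophil and fibroblast lists lie on opposite sides of 0.

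Across spots both ligands varied together and with interferon gamma-induced genes. Pearson's r of log2(UMIs + 1) between Cxcl9 and Cxcl10 was 0.66 over the 1406 spots labelled KPC-shZEB1 and 0.58 over the 2669 labelled KPC-shV, with Spearman's rho of 0.67 and 0.54, as a description of points that share a library and 1 fixed depth. Among 10778 other genes with at least 5 CPM in both libraries, those most like Cxcl9, ranked by the lower of the r in the 2 libraries, included Gbp2 (0.80), Iigp1 (0.77), Gbp4 (0.69), Igtp (0.67), Gbp6 (0.66), Ifi47 (0.64), Irgm1 (0.60), Irgm2 (0.59) and Gm4951 (0.59). For Cxcl10 they included Iigp1 (0.61), Cxcl9 (0.58), Gbp2 (0.56), Gbp4 (0.56), Igtp (0.53), Ifi47 (0.53), Gbp6 (0.52), Gbp7 (0.52) and Gm4951 (0.52). An r of at least 0.3 in both libraries was reached by 67 genes with Cxcl9 and 46 with Cxcl10, or 0.622% and 0.427% of those compared.

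Cxcr3 and Ifng, both counted with few UMIs, had no such companions. No gene reached an r of 0.3 with either in both libraries. Highest were Ccl8 (0.17), Clec4a1 (0.17), Fyb (0.17), Clec12a (0.16) and Ms4a6c (0.16) for Cxcr3, and Serpina3g (0.15), Gbp5 (0.15), Gbp6 (0.14), Serpina3f (0.14) and Iigp1 (0.14) for Ifng. The r between Cxcl9 and Cxcr3 was 0.03 and 0.08, and between Cxcl9 and Ifng 0.16 and 0.13. By levels, spots with at least 1 Ifng UMI, 103 and 102 in number, had 1473 CPM of Cxcl9 against 875 CPM in the other spots of the library labelled KPC-shZEB1, and 754 against 309 CPM in that labelled KPC-shV. Cxcl10 had 306 against 143 CPM and 141 against 71.7 CPM. Read the other way, Ifng had 7.95 CPM (101 UMIs) in spots with at least 16 Cxcl9 UMIs and 0.698 CPM (3 UMIs) in those with 0 in the first library, and 6.18 CPM (46 UMIs) and 1.07 CPM (17 UMIs) in the second.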

How the data were processed

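The authors hybridized probes to methanol-fixed sections of frozen tumors (Visium CytAssist), processed the reads with Space Ranger 2.0.1 on mm10, chose spots over tissue by image and deposited UMI counts that are not normalized. Both libraries list the same 19465 features, with 11 repeated symbols. Probes per gene differ, so levels were compared only within a gene. A level is a gene's UMIs per 1000000 UMIs of the spots used (CPM). Intervals (exact Poisson, exact conditional binomial for ratios, a normal approximation on the log scale for ratios of UMIs per UMI, exact binomial for shares, 95%) cover counting error only. With 1 library per group no test was made. Ratios at least 2-fold were counted among genes that reached 100 UMIs in each library. Across-spot work used spots thinned to 20000 UMIs (seed 1). The steps were tested on simulated data. Named genes are the 4 genes, those of 25 lists (177 of 194 list genes used) and, by likeness, the 10 genes most like each ligand and the 5 most like Cxcr3 and Ifng. Some genes that this rule names are not reported here. The genes and lists were chosen with earlier results of these data known. Quotients per UMI, weighting over strata, B cell-rich and shallow spots, the class of 16 Cxcl9 UMIs and the background comparison were chosen after seeing the data. Positions came from GENCODE M21, promoters from RefSeq. Images, spot positions and the single-cell data were not used here. Python 3.11.15, numpy 2.4.6, scipy 1.17.1, pandas 2.3.3 and matplotlib 3.10.9 were used.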

Additional observations from a re-analysis of the deposited data

Results flagged for a closer look

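For 13 pairings of a ligand and a gene list, out of those of 2 ligands with 25 lists, the spots highest for the list lay above the other spots in one library and below them in the other. Only pairings with both counting-error intervals clear of 0 were counted, and these intervals do not cover the spread between spots. The list of genes not expected in this tissue was left out of the 13. For that list Cxcl9 differed in sign too. Its log2 ratio was 0.25 (0.21 to 0.28) with the label KPC-shZEB1 and -0.10 (-0.15 to -0.06) with KPC-shV. The difference between the libraries was not tested, since each is 1 library. In log2 ratios, first for the library labelled KPC-shZEB1 and then for that labelled KPC-shV, Cxcl9 had -0.087 and 0.57 for the CD4 list, -0.30 and 1.22 for the macrophage list, -0.048 and 0.48 for the dendritic cell list, and -0.27 and 1.002 for the other chemokine receptors. In the library labelled KPC-shZEB1, Spearman's rho of Cxcl9 was 0.05 for the macrophage list and 0.04 for the other chemokine receptors. For the CD4 and dendritic cell lists it was -0.01. The negative ratios of these lists thus rest on the cut at the upper quartile, and no sign is read for them in that library. Cxcl9 had 0.82 and -1.04 for the neutrophil list and 0.37 and -0.88 for the epithelial tumor list. For stromal lists it had -0.65 and 0.84 (endothelial) and -1.70 and 0.67 (fibroblast). For proliferation Cxcl9 had -0.38 and 0.13. Its rho there was -0.06 in the library labelled KPC-shZEB1, so no sign is read for that list in it either. Cxcl10 had 0.83 and -0.46 for the neutrophil list, -0.61 and 0.29 for the plasma cell list, -0.52 and 1.01 for the endothelial list and -1.21 and 0.68 for the fibroblast list. In the library labelled KPC-shV, rho of Cxcl10 was -0.04 for the neutrophil list and 0.01 for the plasma cell list. No sign is read for these lists in that library.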

How the results depend on the processing

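Of 90 alternative values, 30 were called the same, 58 moved further and 2 reversed. Those called the same moved by less than their counting interval, except the counts of genes most like the ligands, which have no such interval. No paired analysis was possible because each group has 1 library, and for the same reason no replicate could be left out. Level ratios over all spots (log2 0.95, 0.62, 1.05 and 0.79 for Cxcl9, Cxcl10, Cxcr3 and Ifng) kept their sign in every setting run. In that order they were 1.60, 1.26, 1.65 and 1.42 without acinar-rich spots, 1.62, 1.26, 1.68 and 1.40 without spots over 5% acinar UMIs, and 1.57, 1.23, 1.60 and 1.38 without those over 40%. With acinar genes out of the total they were 1.32, 0.99, 1.43 and 1.17, with median-of-ratios scaling 1.43, 1.10, 1.53 and 1.27, and as the mean CPM of spots 1.13, 0.71, 0.72 and 0.50. Without the highest 1% of spots, Cxcl9 had 0.99 and Cxcl10 0.71. The difference in shares of all spots with a UMI was -6.49 percentage points for Cxcl9, 3.16 for Cxcl10, 2.66 for Cxcr3 and 1.29 for Ifng. For Cxcl9 it reversed to 14.6 without acinar-rich spots and to 5.94 at 5000 UMIs, and was -1.72 without thinning. Without acinar-rich spots it was 22.5 for Cxcl10, 4.96 for Cxcr3 and 3.50 for Ifng. For Cxcr3 it was 0.93 at 5000 UMIs and 7.07 without thinning. For Ifng it was 0.003 (-0.90 to 0.95) at 5000 UMIs and 5.57 without thinning. Over all spots at 20000 UMIs the intervals of Cxcl10 (-0.82 to 7.13) and Ifng (-0.35 to 2.96) span 0.

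In these settings the ligand ratios across spots kept their sign. In a different contrast, spots from each library's own upper quartile of macrophage UMIs up over all its others, Cxcl9 had -0.30 with the label KPC-shZEB1. The order of the libraries turned for T cell genes without thinning and with acinar-rich spots, and for Cxcl9 by macrophage genes with acinar-rich spots. For T cell genes at 5000 UMIs, spots with at least 1 UMI, and not at least 2, were set against those with 0. There Cxcl9 had 0.42 with the label KPC-shZEB1 and 1.21 with KPC-shV, and Cxcl10 0.59 and 1.18. Without thinning they were 2.02 and 1.79 for Cxcl9 and 1.90 and 1.63 for Cxcl10. With acinar-rich spots Cxcl9 had 2.34 and 2.04 and Cxcl10 2.58 in the first library. For macrophage genes Cxcl9 had 0.76 and 1.72 at 5000 UMIs, 0.86 and 1.79 without thinning, and 5.06 and 2.11 with acinar-rich spots, where Cxcl10 had 5.56 and 1.69. Without B cell-rich spots Cxcl9 had 1.37 and 1.97 for macrophage genes and 1.26 for T cell genes in the first library. Another random thinning gave Cxcl9 0.69 and Cxcl10 1.12 for macrophage genes in the first library and Cxcl9 1.69 for T cell genes in the second, so counting intervals understate the error of the thinned values. Of the 20 places for genes most like the ligands, 17 held the same genes by Spearman's rho and 16 at 5000 UMIs. The cause of these shifts was not tested. The few UMIs of Cxcr3 and Ifng limit every across-spot value of both.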

Other observations

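Spots under 20000 UMIs outside acinar-rich tissue, 52 labelled KPC-shZEB1 and 628 labelled KPC-shV, were left out of the across-spot results. In them Cxcl9 had 170 and 158 CPM, against 993 and 332 CPM in the deeper spots. Cxcl10 had 121 and 58.3 CPM, against 167 and 70.0 CPM. Cxcr3 had 12.4 CPM (9 UMIs) and 4.45 CPM (26 UMIs), above the 3.92 and 1.16 CPM of the deeper spots, and Ifng 5.52 CPM (4 UMIs) and 3.25 CPM (19 UMIs), against 5.40 and 1.97 CPM.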
